A study of Mus musculus with 27 samples.

Results

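The hypoxia-inducible factor (HIF) subunits and the enzymes that read oxygen for them were followed through the mouse model of oxygen-induced retinopathy (OIR). The 10 genes were chosen by symbol from the 40129 genes of the expression table, and all 10 were found and tested. They are the oxygen-regulated alpha subunits Hif1a, Epas1 and Hif3a, the constitutive partners Arnt and Arnt2, the prolyl hydroxylases Egln1, Egln2 and Egln3, the ubiquitin ligase subunit Vhl and the asparaginyl hydroxylase Hif1an. The OIR mice were C57BL/6J pups of both sexes that were kept in 75% oxygen from postnatal day 7 to day 12 and then returned to room air. The nOIR controls were pups of the same strain that stayed in room air throughout. Whole retinas were taken at p14, when the OIR retina is ischemic, or at p17, when neovascularization is at its height. The groups compared were nOIR p14 (6 mice), nOIR p17 (6), OIR p14 (6) and OIR p17 (8), with 1 library per mouse from 1 retina or from both retinas pooled. Mouse S4 of nOIR p14 was left out, as in the study, which judged it an outlier for its contamination by lens genes. The pups of a group came from 2 to 4 litters, the litter of each pup was not used here, and all tests treat pups as independent.

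In cells with enough oxygen, prolyl hydroxylases of the EGLN family use molecular oxygen to hydroxylate the alpha subunits, and the VHL ubiquitin ligase then marks them for destruction. The asparaginyl hydroxylase encoded by Hif1an uses oxygen in the same way to block the binding of coactivators. When oxygen falls, the alpha subunits persist, pair with ARNT and switch on genes of glycolysis, red cell formation and vessel growth. Most of this control acts on the proteins, and RNA sequencing does not see it. In the retina, the HIF pathway is known as the driver of Vegfa in ischemic tissue.

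The upstream sequences of the prolyl hydroxylase genes are shown because Egln3 carried the largest change of the 10 genes and Egln1 the widest spread within groups. The windows are the 250 bases before the first RefSeq start of each gene (build GRCm38.p6), all on the minus strand and written 5′ to 3′. They lie at chr12:54203875-54204124 for Egln3, chr8:124949255-124949504 for Egln1 and chr7:27166803-27167052 for Egln2. Capitals mark the cores ACGTG and GCGTG of the hypoxia response element, searched on both strands (reverse complements CACGT and CACGC).
Egln3: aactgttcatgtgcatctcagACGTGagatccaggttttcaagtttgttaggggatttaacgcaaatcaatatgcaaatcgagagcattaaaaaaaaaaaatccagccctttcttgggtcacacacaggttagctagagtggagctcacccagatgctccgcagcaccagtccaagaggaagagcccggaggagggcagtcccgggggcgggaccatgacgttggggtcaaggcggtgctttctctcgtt
Egln1: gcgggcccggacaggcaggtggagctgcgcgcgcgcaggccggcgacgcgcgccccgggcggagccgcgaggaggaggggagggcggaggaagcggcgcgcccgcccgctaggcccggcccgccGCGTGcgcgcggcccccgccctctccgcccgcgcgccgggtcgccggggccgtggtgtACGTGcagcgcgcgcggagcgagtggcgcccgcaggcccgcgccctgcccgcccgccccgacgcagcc
Egln2: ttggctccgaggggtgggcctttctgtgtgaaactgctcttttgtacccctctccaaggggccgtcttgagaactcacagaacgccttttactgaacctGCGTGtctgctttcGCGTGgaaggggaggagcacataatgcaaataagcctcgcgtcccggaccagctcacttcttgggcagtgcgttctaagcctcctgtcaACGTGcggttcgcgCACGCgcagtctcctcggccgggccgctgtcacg
Egln3 held 1 ACGTG, with its first base at position -229 from the start. Egln1 held 1 GCGTG and 1 ACGTG, with first bases at positions -126 and -68, in a window that was 86.0% G and C. Egln2 held 4 cores at this start and 1 at a second RefSeq start. Hif1a held 3 ACGTG matches, of which 2 overlap as a palindrome, Hif3a held 2 GCGTG and Arnt 1 GCGTG. Vhl, Arnt2 and Hif1an held none of these letters in the window, and no entry was used for Epas1. Of 32851 windows of the same length, 16.6% held ACGTG, 28.2% held GCGTG and 38.6% held either, so a match in this window is common and is given only as a description.

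Values are normalized reads, which are gene counts that the authors divided by 1 size factor per mouse. Levels of different genes are compared per kilobase of the union of all exons of a gene. Fold changes are differences of mean log2(normalized reads + 1), tested with limma across 27137 genes, and a gene was called at a Benjamini-Hochberg adjusted p under 0.05. Recovered totals ran from 17029536 reads (OIR p17 mouse S1) to 33593428 reads per mouse. Behind the members lay between 36 reads (Egln3) and 32775 reads (Hif1a) in a mouse. Marker lists were read beside the labelled tissue, and no gene found of the 13 lists was at 0 in all mice of a group. Lens, erythroid and pigment epithelium markers are among these lists, so this check cannot decide the tissue. The summed level of 7 rod markers ran from 884401 to 1604085 normalized reads over the 4 groups. At p17, 8 of 10 endothelial and 8 of 8 pericyte markers were higher in OIR mice. At p14, 1 endothelial and 1 pericyte marker were higher, and 1 endothelial and 4 pericyte markers were lower. All 5 erythroid markers were higher at p17 and 0 were called at p14. Of 8 microglia markers, 1 was higher at p14 and 5 at p17, where their summed level was 1780.3 to 2069.9 normalized reads in nOIR and 2904 to 4855 in OIR mice. Lens and pigment epithelium markers gave 0 calls at either age, although summed lens markers ranged from 33.7 to 32706 normalized reads over the mice compared, which do not include S4. The median log2 fold change of the 7 lens markers in OIR mice was 1.42 at p14 and 1.66 at p17. In bulk retina, fewer cells of a type and less RNA per cell cannot be told apart. OIR p14 mouse S1 stood apart from its group in Egln2 and Epas1, and the values of these genes in OIR p14 mice are given with and without it.

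Per kilobase, Hif1a was the most abundant of the 10 transcripts, with a mean of 4185 ± 467 normalized reads per kilobase (SD, n = 26 mice). It lay above Egln1 in 26 of 26 mice. Egln1 followed at 1019 ± 709 and Vhl at 759.8 ± 104, and these neighbours were not separated, since Egln1 lay above Vhl in 15 of 26 mice. Hif1an at 505 ± 106 and Epas1 at 461 ± 68.5 also overlapped, with Hif1an higher in 16 of 26 mice. By group, Hif1an lay above Epas1 in 6 of 6 OIR p14 mice (means 559 and 395 normalized reads per kilobase, and 559 and 414 in the 5 mice without S1) and in 3 of 8 OIR p17 mice (means 477 and 531). In nOIR mice it was above Epas1 in 4 of 6 at p14 and in 3 of 6 at p17. The difference in order between groups was not tested. Egln2 followed at 411 ± 67.3 and Arnt at 247 ± 32.7. Egln3, at 123 ± 115 over all mice, lay above Arnt2 at 72.2 ± 19.2 in 13 of 26 mice, and this order followed the groups. Egln3 was above Arnt2 in 0 of 6 nOIR mice at each age, in 5 of 6 OIR p14 mice and in 8 of 8 OIR p17 mice. In OIR p17, on these exon lengths, Egln3 also came level with Arnt (means 251 and 255). Arnt was the higher in 4 of 8 mice there and in 6 of 6 mice of each other group. Hif3a was lowest with 16.4 ± 6.23 and lay below Arnt2 in 26 of 26 mice. Exon lengths were taken from GENCODE M21, an older release than the M28 on which the reads were counted. The union of exons is 8007 bases for Arnt and 2800 for Egln2, beside 4325 and 2107 for their longest transcripts. On longest transcripts both would lie higher per kilobase. The places of Egln2 and Arnt in this order, and the likeness of Egln3 and Arnt in OIR p17, therefore depend on the length used.

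**Figure D1:**
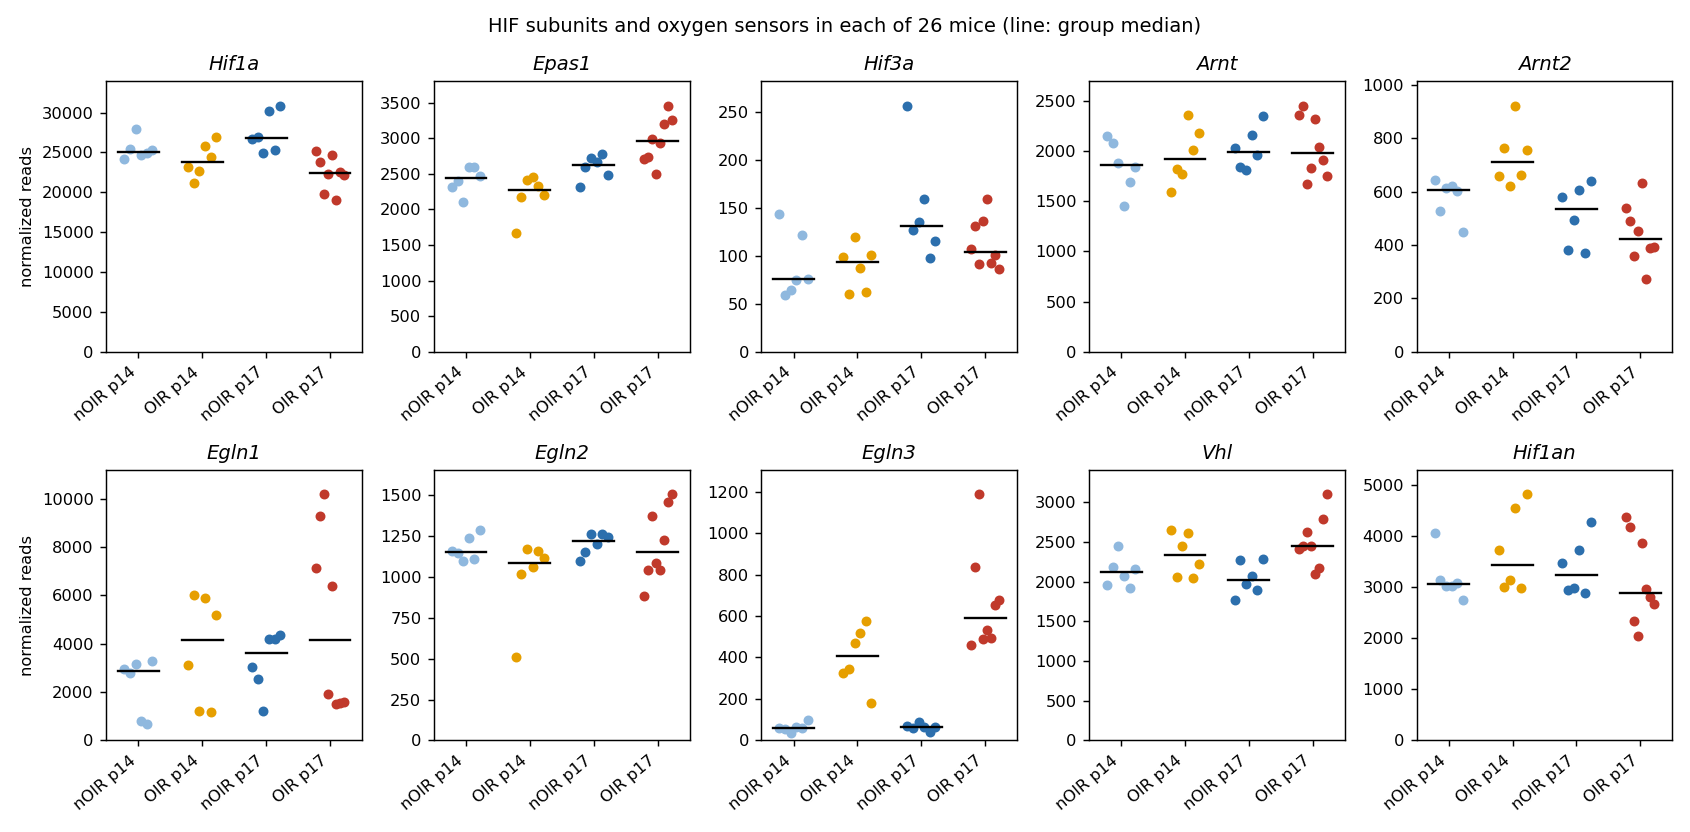
Normalized reads of the 10 genes in each of the 26 mice (vertical axes, linear from 0), by group (horizontal axis), with 1 point per mouse and a line at the group median. Egln3 is the gene whose OIR mice all lie above all nOIR mice, and Egln1 spreads widely within every group.

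Egln3, the prolyl hydroxylase gene that is itself a known HIF target, rose in the ischemic retina and was the only one of the 10 genes called at p14. At p14 its normalized reads were 36.4, 58.8 and 100.5 in nOIR mice (lowest, median and highest) and 181, 409 and 577 in OIR mice. Every OIR mouse lay above every control. The log2 fold change was 2.64 ± 0.26 (SE, 95% interval 2.10 to 3.17), a 6.22-fold difference, and the limma adjusted p was 7.81e-08. The exact permutation test over mice (two-sided, n = 6 and 6) gave p = 0.00216, the smallest that these group sizes allow. At p14, 3.18% of the genes tested were called higher and 2.91% lower, and 3.77% had groups that did not overlap.

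At p17 the separation was again complete. Egln3 had 40.8, 63.3 and 89.3 normalized reads in nOIR mice and 462, 593 and 1187 in OIR mice. The log2 fold change was 3.32 ± 0.24 (interval 2.82 to 3.82), a 9.98-fold difference (limma, adjusted p = 3.28e-11). The exact permutation p was 0.000666 (n = 8 and 6), again the smallest possible. At p17, 7.39% of the genes were called higher, 5.12% lower, and 5.87% did not overlap between groups. Egln3 also met the stricter DEG rule of a log2 fold change above 2, which 0.744% of the genes met at p14 and 1.90% at p17. The effect at p17 exceeded that at p14 by 0.68 ± 0.36 on the log2 scale, which was not called (limma, adjusted p = 0.513). In nOIR mice the level was 62.5 ± 21.1 (SD) normalized reads at p14 and 64.3 ± 15.5 at p17. Between OIR p14 and OIR p17 the mean went from 403 ± 146 to 667 ± 245, a log2 difference of 0.75 ± 0.24 (SE) that missed the threshold (limma, adjusted p = 0.0671). That last p crossed the threshold under some alternatives, among them without OIR p17 mouse S1, the most shallowly sequenced (adjusted p = 0.0463).

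In nOIR mice Egln3 was the rarest of the prolyl hydroxylase transcripts. Per kilobase, its level was 0.0554 ± 0.0152 (SD) of that of Egln2 in nOIR p14 mice and 0.0563 ± 0.0134 in nOIR p17 mice. In OIR mice this ratio was 0.443 ± 0.170 at p14 and 0.585 ± 0.184 at p17. Without OIR p14 mouse S1, which had the lowest Egln2 and the highest ratio of its group (0.669), the OIR p14 ratio was 0.398 ± 0.144 (n = 5). Marker lists that moved in the same comparisons included astrocyte markers, of which 3 of 5 were higher at p14 and 4 of 5 at p17. Their summed level went from 1455 to 2285 normalized reads in nOIR p14 mice to 3502 to 9910.3 in OIR p14 mice. In OIR p14 mice most of this sum was Gfap, an intermediate filament gene that Müller glia also express under stress, which went from 600.5 ± 293 to 5726 ± 2251 normalized reads, while the median log2 fold change of the 5 genes was 0.76. S100b lay in the other direction at p14 (log2 fold change -0.61 ± 0.20), which limma did not call (adjusted p = 0.0733) and DESeq2 called lower (adjusted p = 0.0432), as did limma with library scores (adjusted p = 0.0146). Müller glia markers went the other way, with 5 of 8 lower at p14 and 6 of 8 lower at p17. Endothelial, pericyte, erythroid and microglia markers moved as given above. The part of these lists in the Egln3 difference was not tested.

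Egln2 encodes the prolyl hydroxylase also known as PHD1. Its normalized reads were 1096, 1152 and 1289 in nOIR p14 mice and 509.9, 1089 and 1172 in OIR p14 mice (lowest, median and highest). The lowest of these belonged to OIR p14 mouse S1, and the other OIR p14 mice lay at 1018 or above. The log2 fold change of -0.27 ± 0.15 at p14 was not called (limma, adjusted p = 0.384), and without mouse S1 it was -0.08 (adjusted p = 0.794). At p17 the means were 1204 ± 226 (SD, n = 8) in OIR and 1203 ± 67.9 (n = 6) in nOIR mice. The 95% interval of the log2 fold change at p17 ran from -0.31 to 0.27 (limma, adjusted p = 0.960).

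Egln1 encodes PHD2, the main oxygen sensor of the pathway in most cells, and its reads spread widely within every group. The highest mouse was 3.61 times the lowest in nOIR p17 and 6.81 times in OIR p17. In nOIR p14 it had 2965, 2800.4, 3138, 798, 678 and 3278 normalized reads (mice S1, S2, S3, S5, S6 and S7). In OIR p14 the values were 3116, 5995, 1225, 5889.6, 1174 and 5170.0 (S1 to S6). Each of these groups holds 2 mice far below the others. In nOIR p17 the values were 3041, 2519.9, 1212, 4197, 4192 and 4374 (S1 to S6). In OIR p17 they were 7146, 9259, 10173, 1904, 6378, 1494, 1566 and 1570.0 (S1 to S8). There 4 mice were low, including the 3 last. Over the 27 mice of the table, 9 lay at or below 1904 and 18 at or above 2519.9. The 9 were taken by rank. They ran from 678 to 1904, and the nOIR p17 mice were graded above 1212, so this cut does not mark clean levels. The log2 fold change was 0.69 with a 95% interval of -0.43 to 1.81 at p14 (limma, adjusted p = 0.597). At p17 it was 0.28 with an interval of -0.77 to 1.32 (adjusted p = 0.819).

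The same 9 mice were also the 9 lowest in 25 of 12910 other genes whose mean reached 100 normalized reads, among them Qk and Khdrbs3. These genes were picked out after their values were seen. In 2 further genes the same mice were the 9 highest. The G and C content of the richest 200-base window of the transcript was 89.5% for Egln1, and only 0.150% of 12679 genes reached that value. The median of that measure was 87.0% for the 25 genes and 67.5% over all genes. Relative to the mean log2 level of the 25 genes, Egln1 lay at 0.61 ± 0.19 (SD) in nOIR and 1.35 ± 0.28 in OIR mice at p14. At p17 it lay at 0.97 ± 0.29 in nOIR and 1.89 ± 0.44 in OIR mice. On this relative scale the p14 groups ran from 0.31 to 0.83 (nOIR) and from 1.01 to 1.73 (OIR) without overlap, and the p17 groups, from 0.58 to 1.28 and from 1.22 to 2.61, overlapped. The 25 genes themselves differed by -0.05 at p14 and by -0.64 at p17 between OIR and nOIR mice on the log2 scale, so the relative values at p17 also carry that shift. No test was made on the relative values, because the reference genes were chosen on the same mice. Adding 2 library scores as covariates (slopes on transcript length and on the richest G and C window), an alternative chosen after the data were seen, gave 0.82 (adjusted p = 0.239) at p14 and 0.87 (adjusted p = 0.137) at p17 on the log2 scale, neither called. The part of library composition in the Egln1 levels was not tested further.

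**Figure D2:**
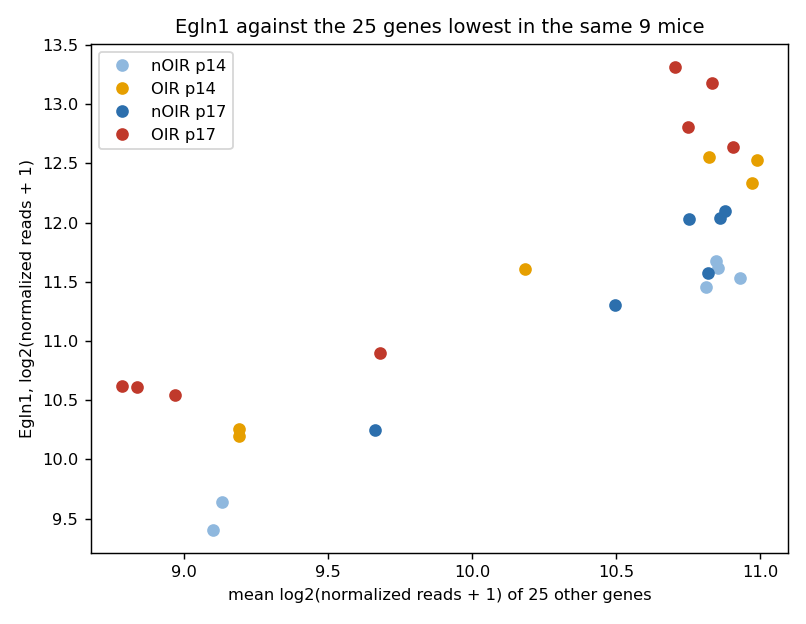
Egln1 against the mean of the 25 other genes that were lowest in the same 9 mice, both in log2(normalized reads + 1), with 1 point per mouse coloured by group. At a like level of the 25 genes most OIR mice lie above the nOIR mice of the same age, which describes genes chosen on these values and was not tested. OIR p17 mice S6, S7 and S8, at 8.97 or below on the horizontal axis, have no nOIR p17 mouse at a like level (lowest 9.66).

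Vhl, the substrate receptor of the ligase that removes hydroxylated alpha subunits, rose slightly at p17. Its normalized reads were 1772, 2020.2 and 2292 in nOIR p17 mice and 2101, 2454 and 3102 in OIR p17 mice. The groups overlapped, and 6 of 8 OIR mice lay above all controls. The log2 fold change was 0.29 ± 0.09 (SE), a 1.23-fold difference with an interval of 1.08 to 1.39 (limma, adjusted p = 0.0269). The exact permutation p was 0.00733. This call rested on single mice, since it was lost without S1, S3 or S5 of nOIR p17 or without S7 or S8 of OIR p17 (adjusted p from 0.0557 to 0.0843). It was also lost with the compared groups alone (adjusted p = 0.0513) and with a replicate block (adjusted p = 0.0988). In the same comparison 8 of 8 pericyte, 8 of 10 endothelial, 5 of 5 erythroid, 5 of 8 microglia and 4 of 5 astrocyte markers were called higher, and 6 of 6 bipolar and 6 of 8 Müller glia markers were called lower. After rescaling to the same total, 4 of the bipolar markers were called lower, and after quantile normalization 3. Of the Müller glia markers, 4 were called lower and 1 higher after quantile normalization. The part of these lists in the Vhl difference was not tested. At p14 the means were 2341 ± 268 (SD) in OIR and 2126 ± 190.2 in nOIR mice, a log2 fold change of 0.14 (interval -0.06 to 0.33, adjusted p = 0.538). The 2 effects were not shown to differ (difference 0.16 ± 0.13, adjusted p = 0.724).

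Hif1an had 3173 ± 452 normalized reads in nOIR p14 and 3696 ± 808 in OIR p14 mice. At p17 it had 3378 ± 548 in nOIR and 3151 ± 867 in OIR mice. Neither difference was called, with log2 fold changes of 0.20 (interval -0.13 to 0.53) at p14 and -0.13 (interval -0.44 to 0.18) at p17. Within groups its level moved with a library score for transcript length (r = 0.84 over 26 mice that share libraries with the score). Hif1an and Arnt2 have the longest transcripts of the 10 genes after Hif3a, at 6194 and 6228 bases, and the corresponding r was 0.62 for Arnt2. It did not follow transcript length from gene to gene, since Hif3a, the longest at 6402 bases, had 0.50 and Arnt, at 4325 bases, had 0.81. For the genes called against controls, r was 0.56 for Hif1a, -0.30 for Egln3 and -0.40 for Vhl.

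**Figure D3:**
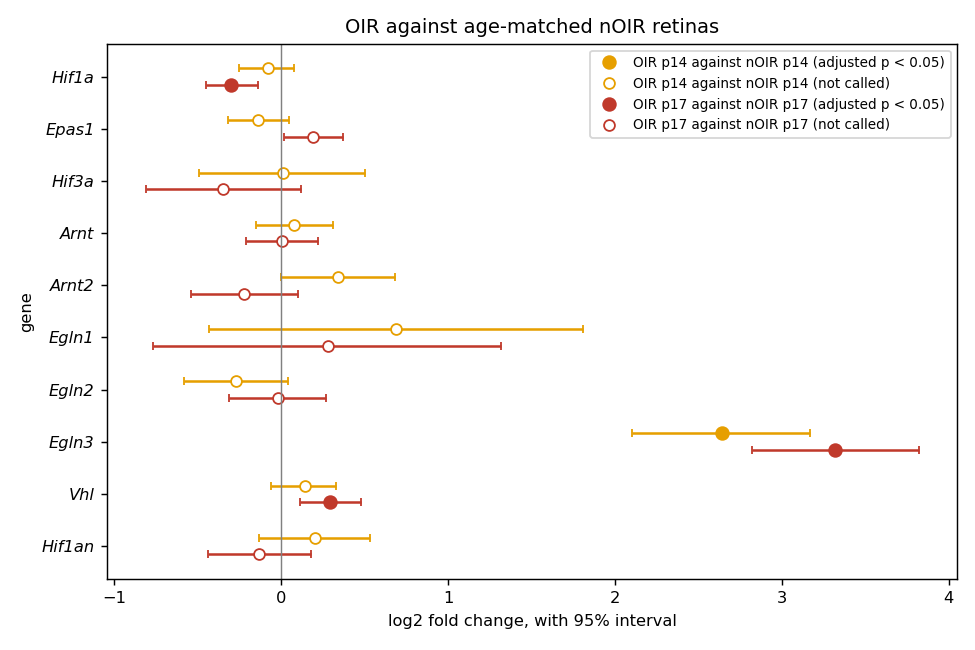
Log2 fold changes of the 10 genes in OIR against age-matched nOIR mice (horizontal axis, with 95% intervals from limma), at p14 and at p17, with filled points where the adjusted p was under 0.05. Egln3 lies at 2.64 and 3.32, and the other called genes, Hif1a and Vhl at p17, lie within 0.30 of 0.

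Of the alpha subunits, Hif1a fell at p17. Its normalized reads were 24957, 26855 and 30875 in nOIR p17 mice (lowest, median and highest) and 19084, 22392 and 25207 in OIR p17 mice. The groups overlapped narrowly, with 7 of 8 OIR mice below all controls. The log2 fold change was -0.30 ± 0.08 (SE), a ratio of 0.815 with an interval of 0.733 to 0.907 (limma, adjusted p = 0.00661), and the exact permutation p was 0.00133. The call held when each mouse was left out in turn, and it was lost under quantile normalization (log2 fold change -0.20, adjusted p = 0.0992). At p14 the means were 24045 ± 2113 (SD) in OIR and 25429.8 ± 1324 in nOIR mice (log2 fold change -0.08, adjusted p = 0.691). The difference between the effects was -0.21 ± 0.11 and was not called (adjusted p = 0.510). In the same comparison 6 of 6 bipolar, 6 of 8 Müller glia, 3 of 6 ganglion cell, 2 of 6 amacrine and 2 of 7 rod markers were called lower, while vascular, erythroid, microglia and astrocyte markers were called higher in the numbers given for Vhl. After quantile normalization, where the Hif1a call was lost, 3 of 6 bipolar and 1 of 7 rod markers were called lower. With library scores as covariates, 5 of 7 rod markers were called lower. The summed level of the bipolar markers was 41181 to 47560.3 normalized reads in nOIR and 26514 to 36133 in OIR mice. The part of these lists in the Hif1a difference was not tested.

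Epas1, which encodes HIF-2α and is known for its expression in endothelium, rose within the OIR model between p14 and p17. It had 1671, 2266 and 2452 normalized reads in OIR p14 mice and 2501, 2956 and 3457 in OIR p17 mice. These groups did not overlap, and the share of all genes without overlap was not counted for this comparison. The log2 difference was 0.43 ± 0.09 (SE, limma adjusted p = 0.00138), a 1.35-fold difference with an interval of 1.20 to 1.52, and the exact permutation p was 0.000666. Without OIR p14 mouse S1, whose 1671 normalized reads were the lowest, it was 0.35 (adjusted p = 0.00371). In this comparison 4.11% of the genes were called higher and 1.81% lower, and its mice are those of the OIR groups described above. Among endothelial markers, 9 of 10 were also higher in OIR p17 than in OIR p14 mice, and their summed level went from 8027 to 13083 normalized reads to 11895 to 15557. Pericyte markers were higher in 8 of 8, with a median log2 difference of 2.43 against 1.25 for the endothelial list, and their sum went from 1624 to 3398 normalized reads to 9472 to 13544. Of the other lists, 5 of 5 erythroid, 5 of 8 microglia, 3 of 6 cone, 2 of 7 rod, 1 of 8 Müller glia and 1 of 5 astrocyte markers were called higher, and 3 of 6 bipolar and 1 of 7 rod markers lower. The part of these lists in the Epas1 difference was not tested.

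Against controls, Epas1 was not called at either age. At p14 it had 2413 ± 187 (SD) normalized reads in nOIR and 2207 ± 286 in OIR mice (log2 fold change -0.14, adjusted p = 0.504). Without OIR p14 mouse S1 the OIR p14 level was 2314 ± 126 and the log2 fold change -0.06 (adjusted p = 0.817). At p17 the values were 2589 ± 169 and 2970.3 ± 320.4 (log2 fold change 0.19, adjusted p = 0.157), and rescaling each mouse to the same total gave 0.26 with an adjusted p of 0.0468. The difference between the effects was 0.33 ± 0.13 (adjusted p = 0.271), and 0.25 (adjusted p = 0.369) without that mouse. Per kilobase, Epas1 stood at 7.93% to 11.1% of Hif1a in the nOIR p14 mice, 7.58% to 11.2% in OIR p14, 8.47% to 11.5% in nOIR p17 and 11.3% to 17.7% in OIR p17. Without mouse S1 the OIR p14 range began at 8.59%. This ratio was formed after both genes had been examined and was not tested.

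Hif3a, whose products include inhibitors of the other alpha subunits, was scarce. Its normalized reads at p14 were 90.3 ± 34.4 (nOIR) and 88.5 ± 23.4 (OIR), and at p17 they were 149 ± 56.9 (nOIR) and 113 ± 26.2 (OIR). The intervals of the log2 fold change ran from -0.49 to 0.50 at p14 and from -0.81 to 0.12 at p17, and both include differences of the size seen for Hif1a. Between nOIR p14 and nOIR p17 its log2 difference was 0.72 ± 0.24 (SE), which was not called (limma, adjusted p = 0.317).

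Of the partner genes, Arnt, the common beta subunit, had 1853 ± 257 (SD) normalized reads in nOIR and 1958 ± 283 in OIR mice at p14, and 2026 ± 205 and 2043 ± 299 at p17. Its 95% intervals ran from -0.15 to 0.31 at p14 and from -0.21 to 0.22 at p17. Arnt2, the partner known mainly from neurons, fell between OIR p14 and OIR p17. It had 620.1, 709 and 922 normalized reads in OIR p14 mice and 274, 423 and 633 in OIR p17 mice, with 7 of 8 of the latter below all of the former. The log2 difference was -0.76 ± 0.16 (SE), a ratio of 0.592 with an interval of 0.475 to 0.738 (limma, adjusted p = 0.00215, exact permutation p = 0.00133). In this comparison the marker lists moved as given for Epas1, with 3 of 6 bipolar markers lower and 8 of 8 pericyte, 9 of 10 endothelial and 5 of 5 erythroid markers higher. The part of these lists in the Arnt2 difference was not tested. Against controls, Arnt2 differed by 0.34 at p14 (adjusted p = 0.291, exact permutation p = 0.00433) and by -0.22 at p17 (adjusted p = 0.439). The difference of these effects was -0.56 ± 0.23 (adjusted p = 0.324). Arnt2 overlaps annotated noncoding genes in RefSeq, as do Egln1 and Hif1a, and the counting did not use strand, so reads in the overlaps cannot be assigned.

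**Figure D4:**
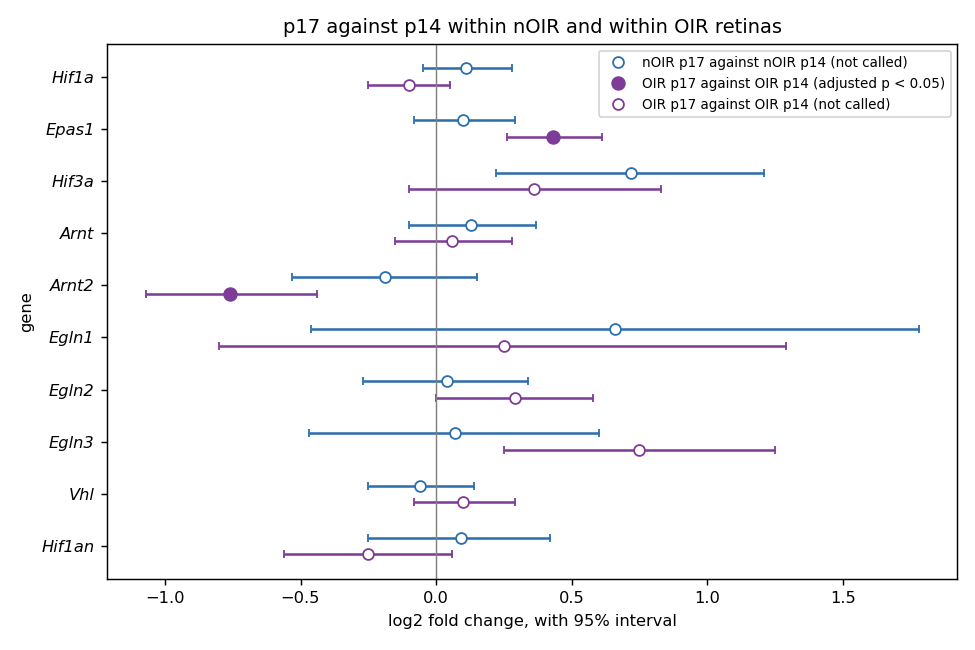
Log2 differences of the 10 genes between p17 and p14 (horizontal axis, with 95% intervals from limma), within nOIR mice and within OIR mice, with filled points where the adjusted p was under 0.05. Epas1 at 0.43 and Arnt2 at -0.76 were called within OIR mice, and none of the 10 genes was called within nOIR mice.

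None of the 10 genes was called for a difference between the OIR effects at p17 and p14, where 1.58% of all genes were called. By limma, 2 had an unadjusted p under 0.05 (Epas1 and Arnt2), and edgeR and DESeq2 called 0. None was called between nOIR p17 and nOIR p14 either, where 0.158% of the genes were called higher and 0.158% lower. There 1 gene, Hif3a, had an unadjusted p under 0.05, and edgeR and DESeq2 called 0. These nOIR mice are the controls of the comparisons above.

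Genes that surround the sensors in the pathway were described by lists. Beside their counts, 3.18% of all genes tested were called higher and 2.91% lower at p14, and 7.39% higher and 5.12% lower at p17. The 5 genes of the VHL ligase beside Vhl itself (Elob, Eloc, Cul2, Rbx1 and Nedd8) gave 0 calls by limma, edgeR and DESeq2 at p14 and p17, and 0 had an unadjusted p under 0.05. The median over the 5 was -0.08 (p14) and -0.13 (p17) on the log2 scale, against 0.02 and -0.02 over all genes. With the library scores as covariates, 1 of them was called lower at p14 and 3 at p17. A further list of 9 genes that act on HIF stability, among them Hsp90aa1 and Siah2, also gave 0 calls by the 3 tools. By limma, 0 of these 9 had an unadjusted p under 0.05 at p14 and 2 at p17.

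Among 6 coactivators and CITED genes, Cited1 was called higher at both ages, as were 3.18% of all genes at p14 and 7.39% at p17. It went from 155 ± 38.1 (SD) to 242 ± 46.6 normalized reads at p14 (adjusted p = 0.0273) and from 152 ± 19.7 to 299.6 ± 80.6 at p17 (adjusted p = 0.000206). Cited2, which competes with HIF for its coactivators and is itself a HIF target, was called lower at p17. Its log2 fold change was -0.79 ± 0.24 (SE, limma adjusted p = 0.0280). The call was also made with library scores as covariates, but not by edgeR, DESeq2, rescaling to the same total or quantile normalization. The median of the 6 was -0.01 at p14 and -0.41 at p17. Of 14 other oxygen-dependent dioxygenases, 1 was called higher at p17, beside 7.39% of all genes. This was Kdm3a, a histone demethylase and known HIF target, at 0.48 ± 0.12 (adjusted p = 0.00597). At p14 limma called 0 of the 14, with 4 at an unadjusted p under 0.05, and edgeR and DESeq2 each called 1, Kdm3a. With library scores as covariates 4 were called higher at p14 (Kdm3a, Kdm5a, Kdm5b and Tet2) and 2 at p17 (Kdm3a and Tet2). The medians of the 14 were 0.07 (p14) and 0.02 (p17). Of 10 other bHLH-PAS genes tested, the neural factor Npas3 was called higher at p14 (0.79 ± 0.18, adjusted p = 0.00504) and at p17 (0.94 ± 0.17, adjusted p = 0.000136). The activity-dependent factor Npas4 was called higher at p17 (1.42 ± 0.47, adjusted p = 0.0417), but not after quantile normalization. Ahr, the aryl hydrocarbon receptor gene, went from 1851 ± 197 (SD) to 2894 ± 730.2 normalized reads at p14 and from 2084 ± 291 to 3122 ± 1101 at p17. Limma did not call it at p14 (0.61 ± 0.20, adjusted p = 0.0766) or at p17 (0.51 ± 0.19, adjusted p = 0.0805). At p17 it was called higher after rescaling to the same total, after quantile normalization, with library scores, by edgeR and by DESeq2 (adjusted p from 8.06e-05 to 0.0460). At p14 it was called after quantile normalization, with library scores and by DESeq2 (adjusted p from 0.00120 to 0.0497). The medians of these 10 bHLH-PAS genes were 0.03 and 0.23.

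Genes known to be switched on by HIF were counted in the same way. Of 15 tested, 8 were called higher at p14 and 11 at p17, and 0 were called lower at either age by limma, edgeR or DESeq2. Over all genes tested, 3.18% were called higher at p14 and 7.39% at p17. The 15 genes had a median of 0.36 (p14) and 0.68 (p17) on the log2 scale, against 0.02 and -0.02 over all genes. Ndufa4l2, a mitochondrial protein gene, went from 194 ± 23.1 (SD) to 2264 ± 494 normalized reads at p14 and from 122 ± 21.7 to 3484 ± 994 at p17. Adm, which encodes adrenomedullin, went from 68.0 ± 22.8 to 575 ± 227 at p14 and from 29.2 ± 9.63 to 1367 ± 359 at p17. Bnip3, a mitophagy gene, had log2 fold changes of 1.06 ± 0.15 (SE) and 1.12 ± 0.14. Vegfa, the main vessel growth factor of the model, had 0.66 ± 0.13 and 1.49 ± 0.13. The effect at p17 exceeded that at p14 for 3 of the 15, namely Adm (difference 2.49 ± 0.36, adjusted p = 8.22e-05), Ndufa4l2 (1.28 ± 0.24, adjusted p = 0.00193) and Vegfa (0.83 ± 0.18, adjusted p = 0.0116). The targets were listed with earlier results of these data known.

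**Figure D5:**
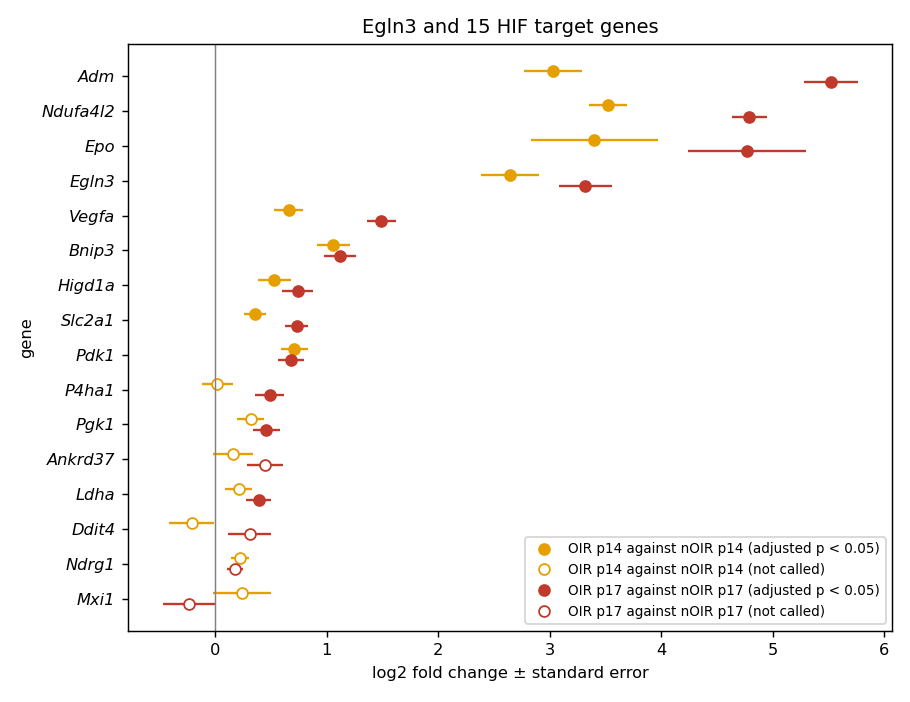
Log2 fold changes (± SE, limma) of Egln3 and of 15 HIF target genes in OIR against age-matched nOIR mice at p14 and p17, with filled points where the adjusted p was under 0.05. At p17 only Adm, Ndufa4l2 and Epo lie above Egln3.

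For each gene called against controls, the 3 genes with the most similar pattern were sought among 12910 genes, by the root mean square difference of centred log2 values over the 26 mice. For Egln3 these were Tgm2 (0.45), H2-Ab1 (0.47) and Nupr1 (0.47), beside a root mean square of 1.60 for Egln3 itself. Tgm2 encodes a transglutaminase and H2-Ab1 an MHC class II chain. For Hif1a they were Prkacb (0.08), Nt5e (0.09) and Aplp2 (0.09), beside 0.16 for Hif1a itself. For Vhl they were Serp1 (0.12), Ptgr2 (0.13) and Ddost (0.13), beside 0.19 for Vhl itself.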

How the data were processed

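Whole retinas of OIR and nOIR mice were sequenced by the authors after SMARTer cDNA amplification and Nextera XT library preparation, which do not keep strand. The authors mapped reads with RNA STAR 2.7.8a to the mouse genome with GENCODE M28 and counted them with featureCounts 2.0.1 at default settings. The deposited signal is normalized reads, gene counts that the authors divided by 1 DESeq2 1.34 size factor per mouse. The deposited group means and the authors' own fold changes and adjusted p-values were not used.

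In each mouse 100% of the values were whole multiples of 1 step (tolerance 0.01), which gives the reads behind them, and totals ran from 17029536 to 33593428 reads. PCR copies were not removed. No pair of mice in a group was a copy of the other. Log2(normalized reads + 1) of the 27137 genes whose mean reached 1 normalized read was fitted to the 4 groups with limma 3.58.1 (lmFit, eBayes with trend, R 4.3.3), and p-values were adjusted by Benjamini-Hochberg over all genes. Single genes also had an exact two-sided permutation test over mice (scipy 1.17.1). The fit was also run on simulated data, and the outcome is not given here. Alternatives were a pseudocount of 0.1, other filters (all genes above 0, mean of at least 10), mouse S4 included, the compared groups only, a replicate block, rescaling to the same total, quantile normalization, log2 Cryaa as a covariate, edgeR 4.0.16 and DESeq2 1.42.0 on recovered reads, an adjusted p under 0.01, arithmetic means, and leaving out each mouse in turn. Library scores as covariates were added after the data were seen.

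The 10 genes, the pathway lists and the marker lists were chosen with earlier results of these data known. Named are all 10 genes, up to 3 called genes per pathway list with the smallest adjusted p, and the 3 genes most like each called member. Other genes named were chosen after their values were seen. Promoter windows come from RefSeq (GRCm38.p6) and exon lengths from GENCODE M21, and 9 of the 10 genes had a promoter entry.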

Additional observations from a re-analysis of the deposited data

Results flagged for a closer look

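In 40 sets of values (10 genes in 4 groups), 4 values, from 3 mice, lay far from the rest of their group by Dixon's criterion at the 95% level, which chance alone exceeds in about 1 of 20 sets. Egln2 had 509.9 normalized reads in OIR p14 mouse S1, where the next mouse had 1018. Epas1 had 1671 normalized reads in the same mouse, where the next had 2171. This mouse also had the lowest library score for the richest G and C window, at -0.220, and the part of that score in its levels was not tested. Hif1a had 27979 normalized reads in nOIR p14 mouse S3, where the next mouse had 25443. Hif1an had 4051 normalized reads in nOIR p14 mouse S1, where the next had 3126. None of these mice decided a call for the gene in question.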

How the results depend on the processing

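For the 10 genes in 5 comparisons, 1890 tests were repeated under alternatives at the same threshold, and 1877 stayed on their side of it, 8 lost a call, 5 gained one and 0 reversed. Fold changes from arithmetic means (20 values, no test) reversed in 0 called cases. The number of the 10 genes called stayed within 1.5 times its main value under every alternative run. Egln3 stayed called at both ages under every fitted alternative, with log2 fold changes from 2.50 to 2.85 at p14 and from 3.19 to 3.42 at p17, and so did Epas1 (0.35 to 0.47) and Arnt2 (-0.84 to -0.66) between OIR p14 and OIR p17. For Vhl at p17, 7 of 38 such tests lost the call, and an adjusted p under 0.01, which is outside these tallies, would also drop it (0.0269) and no other call of the 10 genes. Egln3 between OIR p14 and OIR p17 was called by DESeq2 (adjusted p = 0.0307), with library scores (0.0499), without OIR p14 mouse S5 (0.0387) and without OIR p17 mouse S1 (0.0463). With a replicate block, Vhl at p17 had a log2 fold change of 0.23 (adjusted p = 0.0988) and the number of genes called at p17 was 2, and no other call changed. Same-numbered mice of different groups correlated at a median of 0.02 (34 pairs, -0.23 to 0.34), and mice of other numbers at -0.01. Of 25 mice, 7 correlated best with their own number. The count that chance would give was not computed, and whether some numbers share a batch was not tested. Over all genes, rescaling to the same total moved the calls at p14 from 862 higher and 790 lower to 1019 and 609, and at p17 from 2005 and 1390 to 2406 and 964. Library scores moved the balance the other way, to 1286 higher and 1361 lower at p14 and to 2360 and 2344 at p17. The total calls ranged over the alternatives from 1308 to 2647 at p14 (1652 in the main analysis) and from 2925 to 4704 at p17 (3395). They ranged from 269 to 708 for the difference of effects (429), from 34 to 346 for nOIR p17 against nOIR p14 (86) and from 1018 to 2893 for OIR p17 against OIR p14 (1605). The highest values were always those with library scores. The causes were not tested. The number of mice, 6 to 8 a group, and for Hif3a and Egln3 in controls the low read counts, limit what could be detected.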
